A study of Mus musculus with 6 samples.

Results

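Guidance cues of 3 families and their receptors were followed in the lens transition zone of the mouse embryo. They were picked out by gene symbol, with earlier results of these data known. The list holds semaphorins of classes 3 to 7 with their plexin and neuropilin receptors, and Slits with Robo receptors. It also holds the netrins Ntn1, Ntn3, Ntn4 and Ntn5 with the receptors Dcc and Unc5a to Unc5d. The count table holds 47 such genes among 23420. The transition zone is the strip of the lens where epithelial cells stop dividing and start to lengthen into fibre cells. RNA was sequenced from 3 control and 3 mutant libraries, all from E14.5 embryos of a mixed strain background that were flash frozen in OCT embedding medium. Control embryos, titled wild type in the labels, had the genotype Le-Cre, a transgene that makes Cre recombinase under a Pax6 enhancer in the surface ectoderm that gives rise to the lens. Mutant embryos carried the same Le-Cre transgene with Etv4-/-, Etv5 fl/fl and Etv1 fl/fl alleles. The null allele of Etv4 is present in every tissue of these embryos, while Etv5 and Etv1 are deleted only where Cre has acted. No library lacks Le-Cre, so an effect of the transgene by itself cannot be seen. Etv1, Etv4 and Etv5 encode the Pea3 group of ETS transcription factors, which act below fibroblast growth factor (FGF) receptors. Whether each library came from its own embryo is not given in the labels. The p-values therefore measure only a spread between libraries, which may be technical in part or, among controls, wholly.

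Guidance cues were first known for steering growing axons, and they also act on the shape, adhesion and movement of other cells. Class 3 semaphorins are secreted and bind neuropilins, which signal through A-type plexins, while most other semaphorins are membrane proteins that bind plexins directly. Slits are large secreted proteins that bind Robo receptors, mostly to repel. Netrins attract through Dcc and repel through Unc5 receptors. In the eye these genes are best known for routing retinal axons, and the lens is a known source of Sema3a, which keeps nerves out of the early cornea.

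Library totals lay between 13364742 and 17301168 counts. Levels are given as CPM, counts scaled to library size, with edgeR's TMM factors applied. A count of 0 allows up to 0.152 to 0.247 CPM, depending on the library (3 counts, counting error only). Of the targeted genes, Etv1 lay at 45.4 to 70.7 CPM in control and 21.6 to 29.0 CPM in mutant libraries. Etv5 lay at 168 to 245 and 82.9 to 116 CPM, and Etv4 at 2.13 to 3.21 and 3.71 to 4.92 CPM. Such counts include exons a deletion may spare, so they do not by themselves check the labels. Xist, made from the inactive X chromosome of females, had 711 counts in mutant library 1 and at most 3 elsewhere. The Y-linked Ddx3y had 2 there and at least 521 elsewhere, so that library differs in sex. Mutant library 1 therefore came from another embryo than mutant libraries 2 and 3. Crystallin genes, the main products of fibre cells, took 37.6%, 30.2% and 21.8% of counts in controls 1, 2 and 3, against 21.7%, 32.2% and 19.5% in mutants 1, 2 and 3. Control library 1 and mutant library 2 were thus the richest in fibre product. The summed level of 6 lens epithelium markers ran the other way, at 342.5, 784.4 and 1056 CPM in controls and 770.1, 419.1 and 783.7 CPM in mutants, in the same order. The 10 retinal and neuronal markers summed to between 3.30 and 8.72 CPM over the libraries, with 2 at 0 counts in all of them. The 10 of periocular mesenchyme summed to 4.27 to 22.6 CPM in control and 5.11 to 10.05 CPM in mutant libraries. Among them Col3a1 had 141 counts over the controls and 18 over the mutants, while Twist1 had 18 and 187. Of the 4 mesenchyme markers tested, none was called, and 1 had a positive log2 fold change. The sum of 9 macrophage markers reached from 1.33 to 9.04 CPM in control and from 4.04 to 23.4 CPM in mutant libraries, and that of 7 erythroid markers from 52.5 to 159 and from 70.3 to 270.3 CPM. The 8 markers of corneal and surface ectoderm summed to 33.1 to 41.1 CPM in control and 20.5 to 29.7 CPM in mutant libraries, and Perp, the most abundant, was the only one of them called. Without Perp the other 7 summed to 3.59, 8.93 and 14.4 CPM in controls and 9.09, 8.49 and 19.1 CPM in mutants, so the groups overlapped, and of the 5 tested among them 3 had positive and 2 negative log2 fold changes. The 20 S-phase genes summed to 487 to 1169 CPM in control and 1208 to 2208 CPM in mutant libraries, with 1 called, Mcm2. Fewer cells of a type and less RNA per cell cannot be told apart in such bulk samples.

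The transition zone had a small set of guidance genes at high level. Of the 47 genes, 15 averaged at least 10 CPM in control libraries. Per kilobase of annotated exon, Plxnb2 stood at 21.9 ± 12.4 CPM per kb and Sema3a at 19.3 ± 4.05 CPM per kb in control libraries (SD, n = 3), a difference within their spread. Plxnb2 encodes a receptor for class 4 semaphorins and Sema3a the secreted cue named above. Next came Sema5a at 10.1 ± 2.01, Plxna1 at 9.32 ± 2.11, Slit3 at 8.89 ± 0.786 and Sema4c at 8.68 ± 0.298 CPM per kb (SD, n = 3), whose order among themselves also lay within the spread. Sema5a encodes a membrane semaphorin with thrombospondin repeats, Plxna1 a receptor that pairs with neuropilins, and Sema4c a membrane ligand of Plxnb2. The abundant genes thus included both Sema4c and its receptor Plxnb2. They included Sema3a and the plexin Plxna1 too, but Nrp1, the neuropilin through which Sema3a binds, stood at 1.19 ± 0.497 CPM per kb (SD, n = 3). Robo1, a Slit receptor, and its relative Robo3 stood at 0.254 and 0.491 CPM per kb, and the netrin receptor Dcc at 0.180 CPM per kb. The ligands Sema3a and Slit3 thus lay more than 10 times above Nrp1 and Robo1, respectively, per length.

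**Figure D1:**
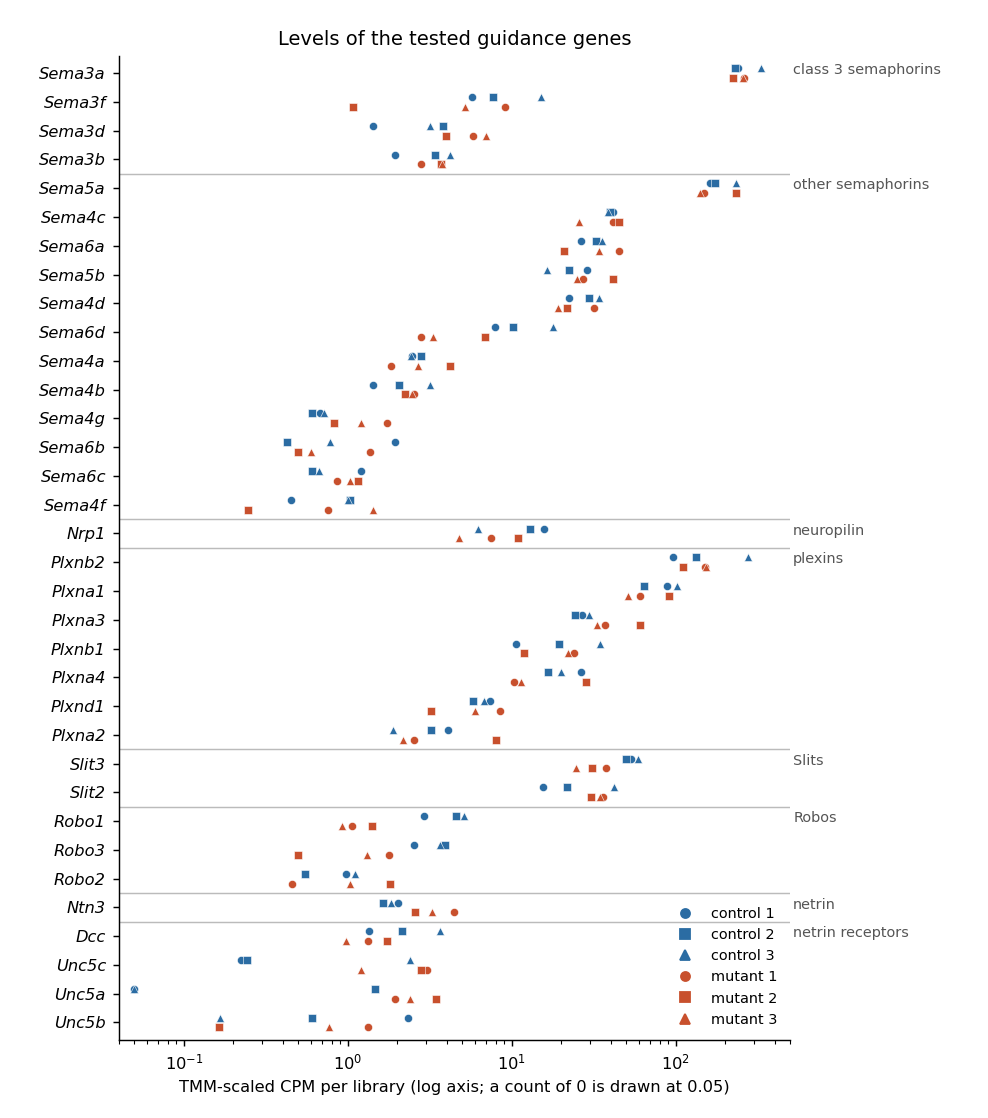
Level of each of the 34 tested guidance genes in every library, as TMM-scaled CPM on a log axis, with circles, squares and triangles for libraries 1, 2 and 3 of the control (blue) and mutant (red) groups; levels are not corrected for length. Sema3a, Sema5a and Plxnb2 lie near or above 100 CPM in all libraries, whereas Robo and netrin receptor genes lie near or below 5 CPM.

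A further 13 genes had too few counts to be tested. Sema3e and Unc5d had 0 counts in all 6 libraries. Slit1 had 4 counts in control library 3 only, Plxnb3 had 3 in control library 2 only, and Ntn5 had 1 and 7 counts in mutant libraries 2 and 3. Plxnc1 reached at most 7 counts, Nrp2 at most 11, Ntn1 at most 13, Sema3g at most 16, Ntn4 at most 19, and Sema3c and Sema7a at most 24 in any library. Robo4, the Robo of blood vessel endothelium, had 35 counts in control library 1, 5 in mutant library 2, 1 in control library 2 and 0 in the other libraries. The endothelial markers Cdh5 and Tie1 were also highest in control library 1, at 2.54 and 2.84 CPM, with at most 0.327 and 0.382 CPM elsewhere. Pecam1, Kdr, Emcn, Cldn5, Esam and Sox17 were highest there too. Tek and Egfl7, the most abundant of the list, were not, and reached their highest levels in mutant library 3, at 53.15 and 42.03 CPM. The 10 endothelial markers summed to 64.8 to 81.6 CPM in control and 66.1 to 99.6 CPM in mutant libraries, mostly from Tek and Egfl7. Only 6 of them had enough counts to be tested, Cdh5 and Tie1 not among them, and none of the 6 was called. Whether the level of these markers bears on Robo4 was not tested.

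Between mutant and control libraries, no guidance gene passed the threshold in edgeR, and the lowest p-values were those of Slit3 and its receptor Robo1. At a Benjamini-Hochberg adjusted p under 0.05, 0 of the 34 tested genes were called, against 2.22% of all 12257 tested genes. At an unadjusted p under 0.05 there were 5 of 34 (14.7%), against 16.2% of all tested genes. The 4 lower in mutant libraries were Slit3, Robo1, Sema6d and Robo3 (8.27% of all genes), and the 1 higher was Plxna3 (7.92% of all). The groups did not overlap for 9 genes (26.5%), namely these 5 and Sema3d, Ntn3, Unc5a and Sema4g, all 4 higher in mutants; this held for 22.7% of all tested genes. As a group the guidance genes therefore stood near the background. Their median log2 fold change was -0.10, with 15 positive and 19 negative values, beside 0.0018 over all tested genes. Other tools called 3 of these genes, Slit3, Robo1 and Sema6d, all lower. DESeq2 called 3 of 39 (6.26% of all genes with an adjusted p) and limma voom 3 of 34 (6.54% of all). With crystallin share added to the edgeR model, 4 of 34 were called (6.51% of all), namely Slit3 and Robo1, lower, and Plxna3 and Sema5b, higher.

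**Figure D2:**
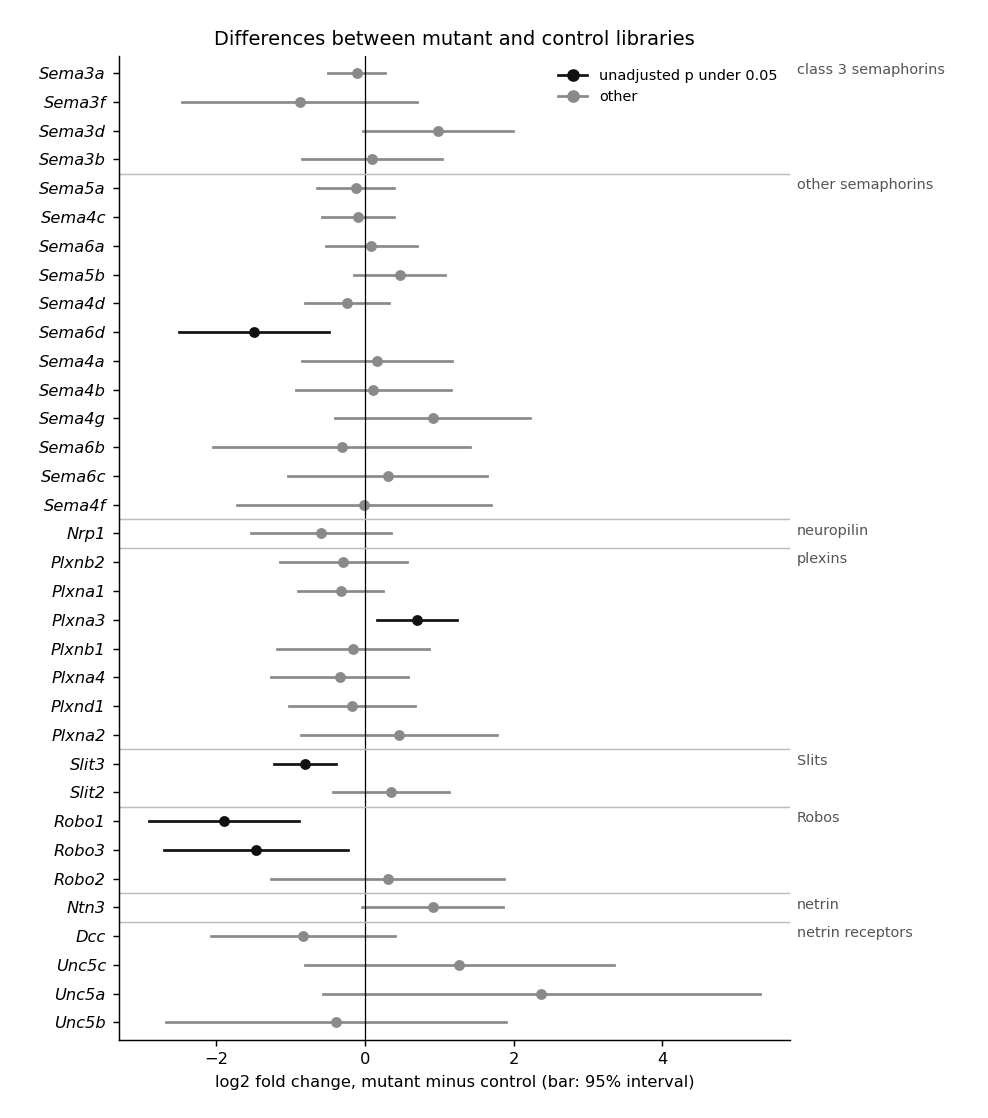
Log2 fold change of each tested guidance gene, mutant minus control, from edgeR, with its 95% interval as a bar; black marks an unadjusted p under 0.05. Slit3, Robo1, Robo3 and Sema6d lie wholly below 0 and Plxna3 wholly above, and none of them passes after adjustment over all genes.

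Slit3, a secreted ligand of Robo receptors, was the guidance gene of lowest p. It stood at 53.3, 49.5 and 59.0 CPM in control libraries 1, 2 and 3 and at 37.5, 30.7 and 24.7 CPM in mutant libraries 1, 2 and 3. Every mutant library lay below every control, and the means, 53.9 and 30.9 CPM, lay farther apart than the libraries of either group. The log2 fold change was -0.80 ± 0.18 (SE; 95% interval -1.22 to -0.38; adjusted p = 0.0686 by edgeR). DESeq2 gave -0.80 (adjusted p = 0.00771) and limma voom -0.69 (adjusted p = 0.0442), both past the threshold. After adjustment for crystallin share edgeR also called Slit3, at -0.82 (adjusted p = 0.0240). Slit2, the other Slit tested, stood at 15.5, 21.7 and 42.1 CPM in controls and 36.2, 30.3 and 34.6 CPM in mutants. Its groups overlapped, since control library 3 was the highest of all, and its log2 fold change was 0.35 ± 0.34 (± SE; adjusted p = 0.656 by edgeR). It was 0.081 without control library 1, 0.86 without control library 3 and 0.14 after adjustment for crystallin share.

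Robo1 encodes a Slit receptor, and Robo3 a relative that in mammals has lost strong binding to Slits and is known for guiding axons across the midline. Robo1 had 39, 75 and 92 counts in controls against 21, 17 and 17 in mutants, or 2.92, 4.56 and 5.10 against 1.07, 1.40 and 0.927 CPM. The highest mutant library lay below the lowest control. Mutant minus control, the log2 difference was -1.89 ± 0.44 (SE; 95% interval -2.90 to -0.89; adjusted p = 0.0722 by edgeR). DESeq2 and limma voom called it at -1.91 (adjusted p = 0.00585) and -2.02 (adjusted p = 0.0235), and so did edgeR after adjustment for crystallin share, at -1.95 (adjusted p = 0.0323). Robo3 stood at 2.54, 3.89 and 3.66 CPM in controls and 1.78, 0.495 and 1.31 CPM in mutants, again without overlap. Its log2 fold change of -1.47 ± 0.54 was not called by any of these tests (± SE; adjusted p = 0.232 by edgeR). Robo2 lay between 0.457 and 1.81 CPM over the libraries, with overlapping groups and a log2 fold change of 0.30 ± 0.68 (SE). Beside these genes, the marker sums that did not overlap between groups were those of surface ectoderm, lower through Perp alone (25.9 to 29.5 CPM in controls and 10.6 to 13.7 CPM in mutants), and of S phase, higher. The other surface ectoderm markers overlapped between groups, and none was called. Krt18, the most abundant of them, lay at 1.87 to 8.87 CPM in controls and 2.23 to 7.25 CPM in mutants. Krt5, the tested one with the largest rise, lay at 0.166 to 0.668 CPM in controls and 0.609 to 2.67 CPM in mutants. The part of these markers in the Slit and Robo differences was not tested.

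**Figure D3:**
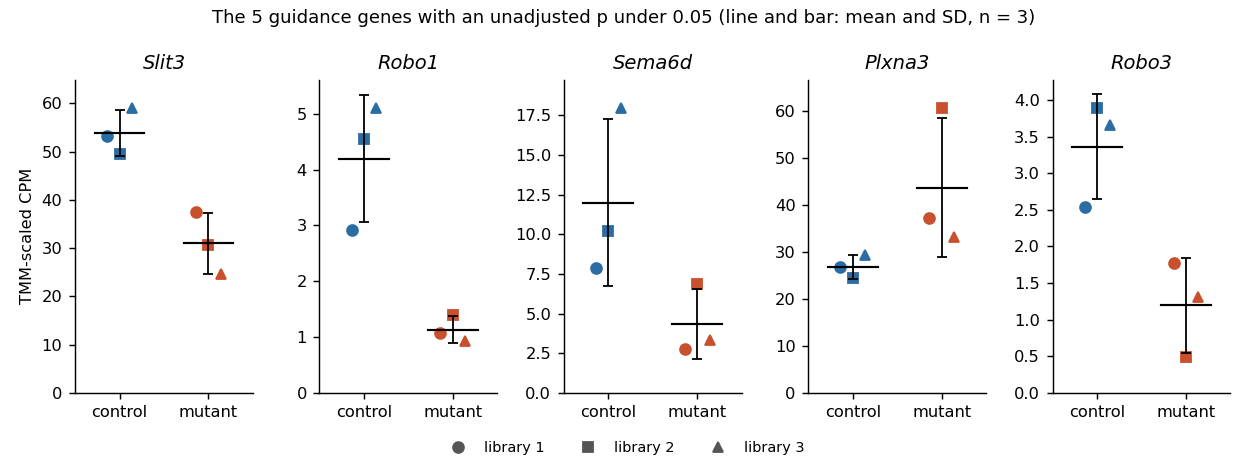
TMM-scaled CPM of the 5 guidance genes with an unadjusted p under 0.05 in each library, with the mean and SD of 3 libraries per group. For Slit3, Robo1, Sema6d and Robo3 all mutant libraries lie below the controls, and for Plxna3 all lie above, with mutant library 2 the highest at 60.7 CPM.

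The proximal promoters of Slit3, Robo1, Robo3 and Plxna3 are shown because the alleles of this study hit ETS factors, whose sites have GGAA at their core. RefSeq windows from 250 bases before to 50 after the gene's start (build GRCm38.p6) were matched for 38 of the 47 genes, with 51 windows. Capitals mark AGGAAG, the PEA3 element, searched on both strands.
Slit3 (chr11:35121206-35121505, plus strand): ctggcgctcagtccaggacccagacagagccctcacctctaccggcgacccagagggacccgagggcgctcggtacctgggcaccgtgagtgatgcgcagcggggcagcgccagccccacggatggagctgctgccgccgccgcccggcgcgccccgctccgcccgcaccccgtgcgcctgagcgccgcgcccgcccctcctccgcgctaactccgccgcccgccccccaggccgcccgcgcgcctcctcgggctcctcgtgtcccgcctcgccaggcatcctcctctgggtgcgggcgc
Robo1 (chr16:72662899-72663198, plus strand): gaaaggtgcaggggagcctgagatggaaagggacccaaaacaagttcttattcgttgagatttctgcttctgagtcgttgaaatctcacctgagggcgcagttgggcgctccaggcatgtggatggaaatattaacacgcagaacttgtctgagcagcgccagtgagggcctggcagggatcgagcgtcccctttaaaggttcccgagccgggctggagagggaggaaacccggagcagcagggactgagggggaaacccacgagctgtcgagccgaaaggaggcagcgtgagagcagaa
Robo3 (chr9:37433126-37433425, minus strand): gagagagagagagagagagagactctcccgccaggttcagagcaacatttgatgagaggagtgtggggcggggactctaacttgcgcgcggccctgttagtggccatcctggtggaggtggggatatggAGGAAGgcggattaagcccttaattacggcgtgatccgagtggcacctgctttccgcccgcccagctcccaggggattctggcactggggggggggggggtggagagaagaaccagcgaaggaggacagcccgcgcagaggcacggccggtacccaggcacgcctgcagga
Plxna3 (chrX:74328816-74329115, plus strand): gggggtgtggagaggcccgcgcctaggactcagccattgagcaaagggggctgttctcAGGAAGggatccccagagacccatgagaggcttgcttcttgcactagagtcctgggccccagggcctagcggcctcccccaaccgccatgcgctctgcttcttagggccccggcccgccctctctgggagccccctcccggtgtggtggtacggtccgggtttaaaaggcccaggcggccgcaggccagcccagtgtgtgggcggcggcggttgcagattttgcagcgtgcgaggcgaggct
The Slit3 and Robo1 windows hold no AGGAAG, nor do the 2 of Sema6d, while those of Robo3 and Plxna3 hold 1 each on the gene's own strand, beginning 121 and 192 bases before the start. Over the guidance genes 21 of 51 windows (41.2%) held AGGAAG, against 35.4% of 32851 RefSeq windows. Counted by gene, 20 of 38 (52.6%) had AGGAAG in any window, against 38.4% of 27025 RefSeq genes. The longer ETS consensus CCGGAAGT, which shares the letters GGAAG with it, was in 0 of 51 windows and in 3.89% of all. GC content had a median of 64.0% in guidance windows and 52.7% in all windows. These matches describe the windows only, and distant elements were not searched.

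Among class 3 semaphorins, 4 of 7 genes were tested and none differed beyond the threshold in any tool. Sema3a, the most abundant semaphorin, stood at 239, 231 and 332 CPM in control and 262, 224 and 257 CPM in mutant libraries. The groups overlapped throughout, and the log2 fold change of -0.11 ± 0.17 had a 95% interval from -0.49 to 0.27 (± SE; adjusted p = 0.799 by edgeR). The sign of this value turned with limma voom (0.013) and without control library 3 (0.075). Sema3d, whose product also binds neuropilins, stood at 1.42, 3.83 and 3.16 CPM in controls and 5.79, 3.96 and 6.92 CPM in mutants. Its groups were apart by a narrow margin, between control library 2 and mutant library 2, and the log2 difference was 0.98 ± 0.44 (± SE; adjusted p = 0.317 by edgeR). Sema3f, a ligand of Nrp2, ranged from 5.76 to 15.1 CPM in controls and from 1.07 to 9.14 CPM in mutants. Its receptor Nrp2 had too few counts to be tested. Sema3b lay between 1.94 and 4.21 CPM in all libraries.

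Of the 13 semaphorins of classes 4 to 7, 12 were tested. Sema6d, a membrane semaphorin that binds Plxna1 and Plxna4, had the lowest p among them. It stood at 7.85, 10.2 and 18.0 CPM in control and 2.79, 6.84 and 3.33 CPM in mutant libraries. The groups did not overlap, although mutant library 2 came close to control library 1, and these are the libraries with the most crystallin counts. The log2 difference between groups was -1.49 ± 0.44 (SE; 95% interval -2.50 to -0.48; adjusted p = 0.143 by edgeR). DESeq2 called it at -1.49 (adjusted p = 0.0220) and limma voom at -1.76 (adjusted p = 0.0271), and edgeR did so without mutant library 2, at -1.98 (adjusted p = 0.0401). After adjustment for crystallin share it was -1.52 and not called (adjusted p = 0.0578 by edgeR).

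Sema5a stood at 162, 173 and 232 CPM in controls and 149, 232 and 140 CPM in mutants, a log2 fold change of -0.12 ± 0.22 (SE; 95% interval -0.64 to 0.39) whose sign turned without control library 3 or mutant library 3. Sema4c, at 38.5 to 41.3 CPM in controls, reached 41.5, 45.0 and 25.8 CPM in mutants, so mutant library 3 alone stood apart. Sema4c shares 7.27% of its annotated exon bases with a gene on the opposite strand, and the kit does not mark strand. Sema5b, the close relative of Sema5a, stood at 28.6, 22.4 and 16.4 CPM in controls and 27.1, 41.1 and 24.9 CPM in mutants. The log2 difference was 0.47 ± 0.27 (95% interval -0.15 to 1.08), and 0.76 after adjustment for crystallin share, where edgeR called it (SE; adjusted p = 0.439 and 0.0208). Sema4d, a ligand of Plxnb1, averaged 28.6 ± 5.97 CPM in controls and 24.2 ± 6.68 CPM in mutants (SD, n = 3). Sema6a, a ligand of A-type plexins, averaged 31.4 ± 4.56 and 33.3 ± 11.9 CPM (SD, n = 3), and both overlapped between groups. Sema4g, without overlap, stood at 0.607 to 0.721 CPM in controls and 0.825 to 1.73 CPM in mutants, where it had at most 34 counts. Sema4a, Sema4b, Sema4f, Sema6b and Sema6c averaged below 3 CPM in both groups and overlapped. For 6 genes of all the families, Sema3a, Sema4c, Sema4d, Sema5a, Sema6a and Plxna1, the 95% interval of the log2 fold change lay within 1 in either direction. For the other 28 it did not, with a median width of 2.01 over the 34 genes.

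Plexins, the main semaphorin receptors, were tested in 7 of 9 cases, and 1 of them, Plxna3, had an unadjusted p under 0.05. Plxna3 pairs with neuropilins to bind class 3 semaphorins. It stood at 26.8, 24.4 and 29.4 CPM in control and 37.2, 60.7 and 33.3 CPM in mutant libraries. All mutant libraries exceeded the controls, mutant library 2 by the most. The log2 fold change was 0.70 ± 0.24 (SE; 95% interval 0.16 to 1.25; adjusted p = 0.195 by edgeR). It was 0.39 without mutant library 2, and it was called after adjustment for crystallin share, at 0.79 (edgeR adjusted p = 0.0496). Plxna3 lies on the X chromosome, and without mutant library 1, the library that differs in sex, the value was 0.81.

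Plxnb2 stood at 96.6, 132 and 277 CPM in controls and 151, 111 and 152 CPM in mutants. Control library 3 lay far above the rest, and the log2 fold change of -0.29 ± 0.37 (± SE; adjusted p = 0.754 by edgeR) became 0.27 without it. Plxna1 stood at 88.5, 63.6 and 101 CPM in controls and 60.7, 90.5 and 50.9 CPM in mutants, with a log2 fold change of -0.33 ± 0.25 (SE). Plxna1 shares 10.7% of its annotated exon bases with a gene on the opposite strand, and the kit does not mark strand. Plxna4, at 26.4, 16.6 and 19.8 CPM in controls, stood at 10.4, 28.2 and 11.3 CPM in mutants, where library 2 was again apart. Plxnb1, Plxna2 and Plxnd1 overlapped between groups as well. Nrp1, the neuropilin that binds Sema3a and also vascular endothelial growth factor, stood at 15.6, 13.0 and 6.21 CPM in controls and 7.51, 10.9 and 4.80 CPM in mutants. On the log2 scale the groups, which overlapped, differed by -0.59 ± 0.41 (± SE; adjusted p = 0.528 by edgeR). This value was -0.11 after adjustment for crystallin share and lay between -0.91 and -0.32 with single libraries left out.

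Netrins and their receptors were scarce. Ntn3, the only netrin with enough counts to be tested, stood at 2.02, 1.64 and 1.83 CPM in control and 4.47, 2.56 and 3.27 CPM in mutant libraries. The groups did not overlap, at a log2 fold change of 0.91 ± 0.41 (± SE; adjusted p = 0.323 by edgeR). Of its annotated exon bases, 1.74% also lie in genes of the same strand and 2.72% in genes of the opposite strand. Dcc, the receptor for attraction, stood at 1.35, 2.13 and 3.66 CPM in controls and 1.32, 1.73 and 0.981 CPM in mutants, a log2 difference of -0.83 ± 0.54 that missed the threshold (± SE; adjusted p = 0.496 by edgeR). Unc5a, a receptor for repulsion, had 0, 24 and 0 counts in controls and 38, 42 and 44 in mutants. Only control library 2 held any of its control counts, and the log2 fold change of 2.37 ± 1.27 had a 95% interval from -0.56 to 5.31 (± SE; adjusted p = 0.409 by edgeR). Unc5c had 3, 4 and 43 counts in controls against 60, 34 and 22, so that in CPM control library 3 lay among the mutants and the other controls below them all. Unc5b, at 31, 10 and 3 against 26, 2 and 14 counts, varied as widely within groups.

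Several guidance genes varied with the crystallin share of the libraries. With group and crystallin share in the same edgeR model, a test chosen after these values were seen, 6 of 34 genes were called for the share, against 8.86% of all tested genes. Plxnb1, Plxnb2, Slit2 and Sema3f were lower where the share was higher (4 of 34; 4.75% of all), and Nrp1 and Sema5b were higher (2 of 34; 4.11% of all). For each 10 percentage points of crystallin share, the log2 level differed by -0.95 ± 0.16 for Plxnb1 (± SE; adjusted p = 0.00500 by edgeR) and by -0.73 ± 0.13 for Plxnb2 (± SE; adjusted p = 0.00747 by edgeR). Plxnb1, a receptor for Sema4d, stood at 10.6, 19.5 and 34.5 CPM in control libraries 1, 2 and 3 and at 24.0, 11.9 and 21.9 CPM in mutant libraries 1, 2 and 3. Its lowest values were thus those of control library 1 and mutant library 2, the libraries with the most crystallin and the lowest epithelium marker sums. Slit2 differed by -0.61 ± 0.17 and Sema3f by -1.27 ± 0.36 per 10 points (± SE; adjusted p = 0.0450 and 0.0493 by edgeR). In the other direction, Nrp1 differed by 0.82 ± 0.21 and Sema5b by 0.54 ± 0.13 (± SE; adjusted p = 0.0345 and 0.0245 by edgeR). By comparison Slit3, Robo1 and Sema6d had values of -0.04 ± 0.14, -0.14 ± 0.38 and -0.07 ± 0.33 (SE), none called.

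The calls for crystallin share rested on few libraries. Without control library 1, the one of highest share, 0 of 37 tested guidance genes were called, beside 1.34% of all genes in that fit, and 9 (24.3%) had an unadjusted p under 0.05, beside 15.9% of all. Without control library 3 the 3 called were Plxnb1 and 2 others, Plxna1 and Plxna4 (8.26% of all genes called). Without mutant library 2 they were Plxnb1, Plxnb2 and Slit2 (1.25% of all called). Each of the other 3 fits called 4 of the 6 genes, beside 5.42% to 7.93% of all genes. Plxnb1 passed in 5 of these 6 fits and Plxnb2 in 4. The signs of all 6 genes held in every fit, for example between -1.04 and -0.85 per 10 points for Plxnb1 and between -0.90 and -0.29 for Slit2. Crystallin share was measured in these same libraries and may itself depend on genotype, so the covariate is not independent of the comparison.

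**Figure D4:**
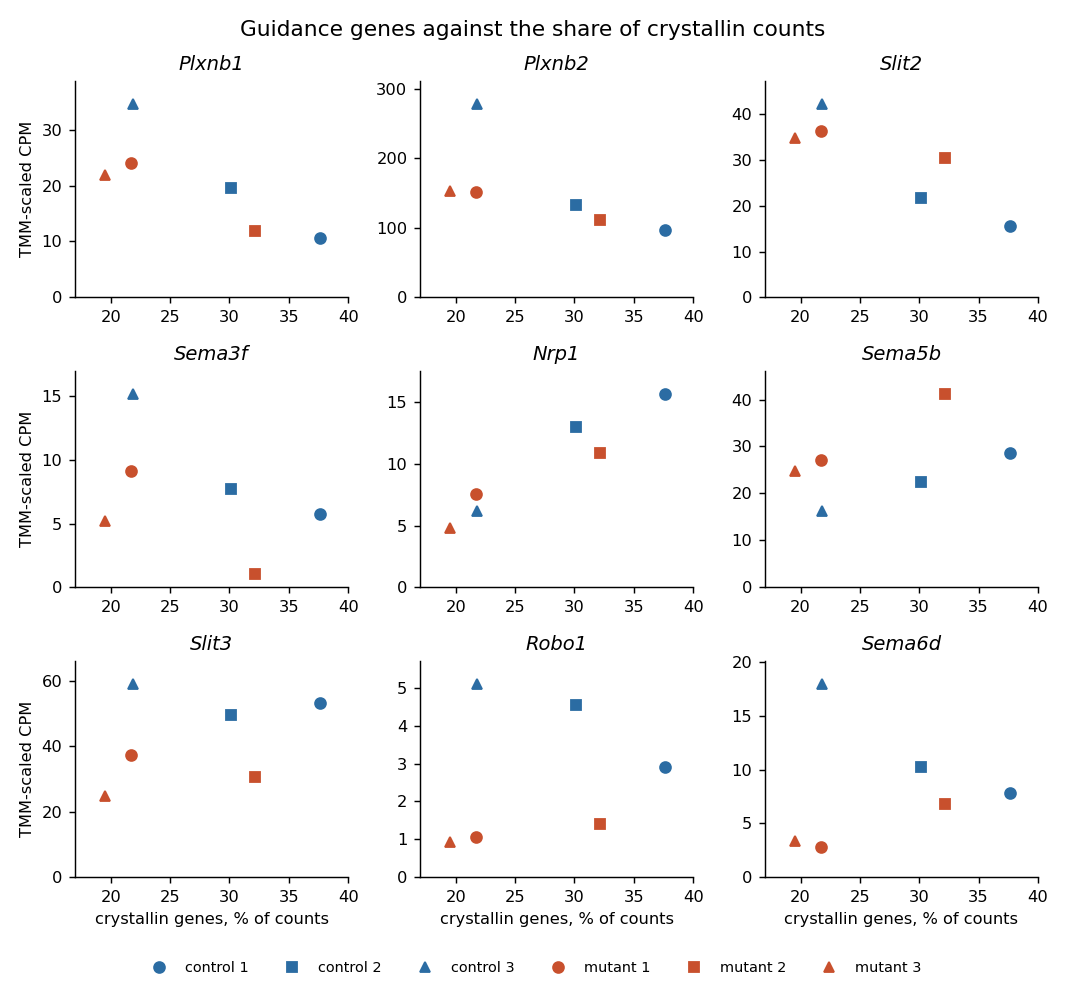
TMM-scaled CPM of 9 guidance genes (vertical axes) against the percentage of counts from crystallin genes (horizontal axes), 1 point per library. Plxnb1, Plxnb2 and Slit2 are lowest within each group in the library farthest right, control library 1 or mutant library 2, Nrp1 is highest there, and for Slit3, Robo1 and Sema6d the mutant libraries lie below the controls at low and high share.

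Coreceptors, alternative ligands and intracellular partners of the guidance receptors were followed in a list of 51 genes, of which 43 were tested. Of these, 1 fell, 0 rose and 42 did not pass, near the 2.22% of all tested genes, with a median log2 fold change of -0.0043. At an unadjusted p under 0.05 there were 7 (16.3%, beside 16.2% of all tested genes), 3 higher and 4 lower. The gene that fell was Ntng2, which encodes a netrin-G, a membrane-anchored relative of netrins that does not bind Dcc. Its counts were 26, 118 and 199 in controls against 1, 3 and 4 in mutants, or 1.94, 7.17 and 11.03 against 0.0508, 0.247 and 0.218 CPM. Mutant values lay near the limit of detection, and the log2 fold change was -5.30 ± 0.83 (± SE; adjusted p = 0.0151 by edgeR). Leaving out control library 2, control library 3, mutant library 1 or mutant library 3 ended the call, with values between -5.59 and -4.73, and under the filter of 5 CPM in 3 libraries it was not tested. Its paralogue Ntng1 had 0 counts in every library.

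The authors' deposited table of their own comparison had adjusted p-values for 41 of the 47 genes. At 0.05 it holds 3 of them, against 6.11% of all genes with an adjusted p there. In the authors' deposited table Slit3 has a log2 fold change of -0.79 (adjusted p = 0.00761), Robo1 -1.74 (adjusted p = 0.00474) and Sema6d -1.38 (adjusted p = 0.0218). These are the genes DESeq2 and limma voom called here from the same counts, so the deposited values are not a separate measurement. For Robo3 and Plxna3 the authors' deposited table gives -1.30 and 0.68, with adjusted p-values of 0.133 and 0.106. The sign matched edgeR's for all 34 tested genes.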

How the data were processed

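RNA sequencing counts of 6 libraries were analysed, 3 control and 3 mutant by title and genotype. Per the labels' protocols, RNA from frozen embryos was amplified with a SMART-seq v4 kit, which marks neither strand nor molecules, so overlapping genes may share counts. The limit set by a count of 0 covers counting error only. Build mm9 and the tools TopHat, Cufflinks, DESeq and bcl2fastq 1.8.4 appear in the submitters' processing notes, without roles. Which program counted reads, and against which annotation, is not given in the sources used here. Raw counts for each gene symbol were deposited by library and in a joint table with the same values (0 differences). Their deposited table gives the mean normalized count as a signal, log2 fold changes with SE, a test score, and p-values.

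Counts were fitted with edgeR 4.0.16 in R 4.3.3: filterByExpr (minimum count 10, total 15; 12257 genes kept), TMM, and its quasi-likelihood F test (robust, no covariates), adjusted over all tested genes at 0.05 (Benjamini-Hochberg). SEs and 95% intervals were derived from the F statistic and so include the spread between libraries. Members and lists were chosen with earlier results of these data known. The value in every library is given for members with an unadjusted p under 0.05 or the highest mean CPM of their family, and for further ones chosen after their values were seen. Exon lengths and overlaps came from GENCODE M21 (GRCm38), another build than mm9; the lengths join all annotated exons. Libraries of a group differed beyond sampling noise (chi-square over degrees of freedom at least 28.1). In simulated counts for the same mutant against control design, the test recovered 32.0% of 100 genes set to a log2 fold change of 1 and 86.2% of 94 set to 2, among 12027 tested. It made 4 false calls, and 3 where nothing had been changed. The changed genes were drawn at random from all kept genes. Counts were simulated independently, without a difference in crystallin share between libraries. Recovery of the guidance genes, many of them of low count, was not simulated and may differ. Alternatives were DESeq2 size factors, TMM without crystallin genes, no filter, 5 CPM in 3 libraries, a replicate block, DESeq2 1.42.0, limma 3.58.1 voom with quality weights, the crystallin share as a covariate, and leaving out each library.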

Additional observations from a re-analysis of the deposited data

How the results depend on the processing

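No guidance gene was called in edgeR with DESeq2 size factors, TMM without crystallin genes, no filter, the filter of 5 CPM in 3 libraries or the replicate block. There were 3 with DESeq2, 3 with limma voom and 4 after adjustment for crystallin share, and between 0 and 1 when single libraries were left out. Over all genes 272 calls became 821, 801 and 798 in these 3 fits, 122 with the replicate block and between 91 and 479 with single libraries left out. Partner genes gave 4, 5 and 5 calls in the same 3 fits, 0 with the filter of 5 CPM, and between 0 and 2 with single libraries left out. Calls for crystallin share numbered between 0 and 4 with single libraries left out, against 6.

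Deviations of libraries with the same replicate number correlated at -0.33, -0.18 and 0.25. The highest correlation, 0.47, was that of control library 1 with mutant library 2, the libraries with the most crystallin counts. Such a difference in composition could hide a pairing, so these values cannot decide whether the numbers pair the libraries. The block changed the call of none of the 34 genes.

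Of these 34, 19 kept their sign in every fit that gave a value; Unc5a gave none without control library 2, where its control counts are all 0. Signs turned with limma voom for Plxna2 (-0.062), Unc5b (0.62), Robo2 (-0.017), Sema6b (0.59), Sema4a (-0.23), Sema3a (0.013), Plxnd1 (0.10), Sema3b (-0.067) and Plxnb1 (0.059). After adjustment for crystallin share they turned for Sema4c (0.011), Unc5b (0.73), Sema6b (0.0047), Sema6a (-0.19), Sema4b (-0.079) and Sema3b (-0.031). With single libraries left out, log2 fold changes lay between -0.24 and 0.12 for Sema4c, -0.38 and 0.77 for Plxna2, -1.07 and 0.98 for Unc5b, -0.39 and 0.048 for Sema5a, -0.57 and 0.27 for Plxnb2, -0.23 and 0.69 for Robo2, -0.91 and 0.46 for Sema6b, -0.19 and 0.33 for Sema6a, -0.19 and 0.42 for Sema4a, -0.20 and 0.075 for Sema3a, -0.67 and 0.38 for Sema4f, -0.53 and 0.11 for Plxnd1, -0.12 and 0.46 for Sema4b, -0.16 and 0.35 for Sema3b, and -0.48 and 0.35 for Plxnb1. The cause was not tested. Leaving out single libraries kept the sign but moved the value of Slit2 (0.081 to 0.86) and Nrp1 (-0.91 to -0.32).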
